A study of Mus musculus with 9 samples.

Results

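The integrated stress response and the unfolded protein response were followed through 10 genes, Atf4, Ddit3, Xbp1, Hspa5, Herpud1, Trib3, Chac1, Asns, Sesn2 and Pdia4, chosen by name. The choice was made with earlier results of these data known. Each matched 1 of the 53465 Ensembl genes in the count files, and all 10 were among the 13825 genes with enough counts to be tested. RNA came from the infarct border zone of hearts of NOD-SCID mice, an inbred immunodeficient strain in which mature T and B cells do not form, so the strain background is shared by every group. The 3 groups of 3 libraries were hearts with sham surgery ("sham"), hearts with ligation of a coronary artery ("ligation"), and ligated hearts implanted with cells named FOXO3-GE-MPCs ("cells"). The source field of 2 libraries of the third group names FOXO4 and FOXO5, while their titles and treatment fields name FOXO3, which was followed. Age, sex, the time after surgery and the number of animals behind a library are not given in the sources used here, and no group here received other cells. Nothing states that replicates came from separate animals, so p-values measure only the spread between these libraries.

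Cells answer several kinds of stress by phosphorylating the translation factor eIF2, which lowers protein synthesis in general while the mRNA of the transcription factor ATF4 is translated more. ATF4 then raises genes of amino acid supply, redox balance and, with prolonged stress, cell death. Unfolded protein in the endoplasmic reticulum (ER) starts the same route through the kinase PERK. It starts separate routes through the sensor IRE1, which splices Xbp1 mRNA to give the active XBP1 factor, and the sensor ATF6. ATF6 is cut to release its own transcription factor domain. Heart muscle after loss of blood supply is a known setting for both responses. Gene counts measure neither eIF2 phosphorylation, nor ATF4 protein, nor the spliced share of Xbp1.

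The target genes are read by these factors through short promoter elements, and the promoters of 4 of the 10 genes are shown because they hold such letters close to the start of transcription. The upstream 250 bases of the RefSeq start were searched on both strands in 10 of 10 genes (RefSeq, GRCm38.p6) for the ER stress element ERSE (CCAAT, any 9 bases, CCACG), the related ERSE-II (ATTGG, any 1 base, CCACG), the ATF4-type element CARE (TGATGNAA) and the unfolded protein response element UPRE (TGACGTG). Capitals mark the matches, and none overlaps another in these windows.
Hspa5 (chr2:34771840-34772089, plus strand): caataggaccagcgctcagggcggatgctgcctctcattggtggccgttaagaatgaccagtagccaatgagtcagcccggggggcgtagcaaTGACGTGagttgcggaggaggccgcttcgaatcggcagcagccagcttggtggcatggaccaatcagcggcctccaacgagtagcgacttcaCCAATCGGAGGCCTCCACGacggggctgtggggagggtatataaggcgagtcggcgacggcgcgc
Herpud1 (chr8:94386179-94386428, plus strand): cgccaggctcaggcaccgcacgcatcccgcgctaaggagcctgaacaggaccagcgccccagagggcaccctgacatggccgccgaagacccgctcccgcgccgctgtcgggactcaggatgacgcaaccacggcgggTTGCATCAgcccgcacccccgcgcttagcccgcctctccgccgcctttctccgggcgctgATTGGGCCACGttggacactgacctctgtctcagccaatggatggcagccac
Chac1 (chr2:119350992-119351241, plus strand): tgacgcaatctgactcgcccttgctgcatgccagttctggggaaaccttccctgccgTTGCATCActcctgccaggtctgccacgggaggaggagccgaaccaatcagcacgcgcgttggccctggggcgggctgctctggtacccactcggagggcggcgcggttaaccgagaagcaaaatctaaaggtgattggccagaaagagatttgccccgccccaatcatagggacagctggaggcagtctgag
Asns (chr6:7693210-7693459, minus strand): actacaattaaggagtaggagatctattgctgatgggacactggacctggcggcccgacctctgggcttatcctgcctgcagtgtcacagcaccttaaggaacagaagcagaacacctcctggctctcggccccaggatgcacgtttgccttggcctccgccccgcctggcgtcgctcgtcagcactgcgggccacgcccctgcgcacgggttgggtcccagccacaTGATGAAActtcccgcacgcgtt
The Hspa5 window held 1 UPRE at bases -157 to -151 from the start and 1 ERSE at -65 to -47. Herpud1 held 1 CARE on the opposite strand at -112 to -105 and 1 ERSE-II at -52 to -42. Chac1 held 1 CARE on the opposite strand at -193 to -186, and Asns 1 CARE at -23 to -16. GENCODE starts the Hspa5 gene (at 34771970), the Asns gene (at 7693254) and the Chac1 gene (at 119351229) inside the windows shown, upstream of the RefSeq start. The Hspa5 ERSE and the Asns CARE lie downstream of the GENCODE start, and the Chac1 CARE upstream of it. The windows of Atf4, Ddit3, Xbp1, Trib3, Sesn2 and Pdia4 held none of these 4 letter patterns. Among 32851 promoter windows of the same length, 0.113% held ERSE, 0.0304% ERSE-II, 3.45% CARE and 1.65% UPRE. A match describes letters only and is not evidence of binding.

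**Figure D1:**
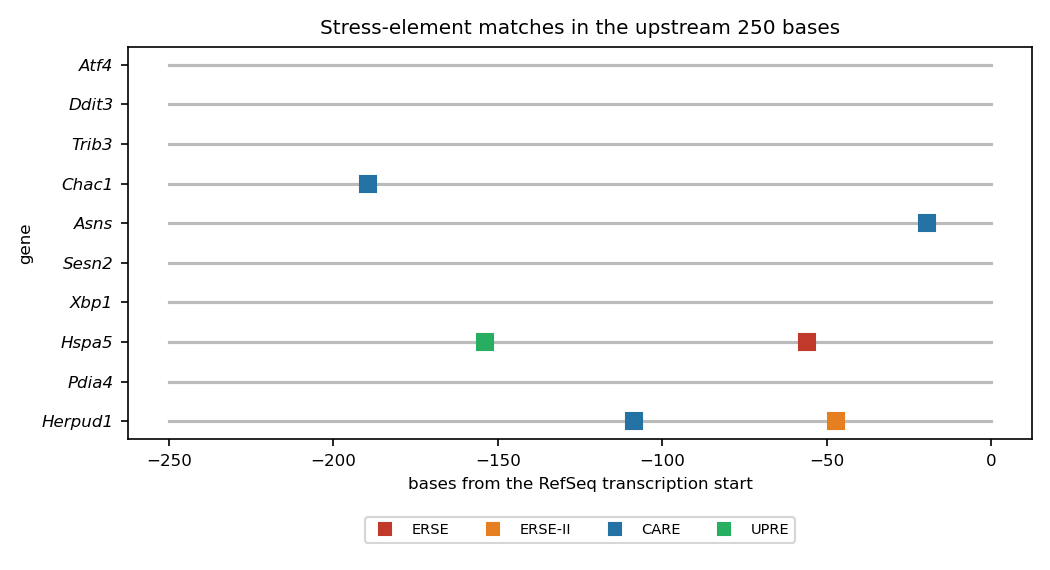
Position of each element match (squares, coloured by element) along the upstream 250 bases of each of the 10 genes, with the RefSeq start of transcription at 0 on the x axis in bases. Matches lie in Chac1, Asns, Hspa5 and Herpud1, and the other lines carry none.

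Libraries held 4549268 to 7515052 gene counts, and 3 counts, taken as the smallest detectable level, equalled 0.375 to 0.639 CPM (counts scaled to library size, with TMM factors). The share of counts from mitochondrially encoded genes was 19.1% to 19.9% in sham, 12.6% to 13.9% after ligation and 14.3% with cells. Scaling by library totals in place of TMM moved the median log2 fold change of all genes to 0.20 after ligation and to 0.15 with cells against sham, and list medians move with it. Calls under that scaling are given where they differ for the 10 genes and for named genes. Reads that fell in more than 1 gene, 8.09% to 8.72% of reads, were not counted. Of the 10 genes, Ddit3 overlaps other genes most, with 4.73% of its exon bases shared with Mars and Gm4189 on the opposite strand and 6.78% of its 31-base words found in other genes. Pdia4 shares 0.584% of its exon bases with Mir704, and 0.0467% of Hspa5's words recur elsewhere. The headers of sham replicates 1 and 2 share a name stem, as do those of ligation replicates 2 and 3. Where summing these to 1 library ended a call on 1 of the 10 genes or on a named gene, both values are given.

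The first comparison asked which of these transcripts differed after ligation. Of the 10 genes, 5 rose (Ddit3, Xbp1, Hspa5, Chac1 and Pdia4), none fell, and the other 5 did not pass a threshold of 0.05. That threshold was set on the Benjamini-Hochberg adjusted p of edgeR's quasi-likelihood test, adjusted over all 13825 genes, and "rose" and "fell" below mean past it. In bulk tissue a lower value from fewer cells of a type and one from less RNA per cell cannot be told apart. In this comparison 38.2% of all genes tested passed, 20.1% higher and 18% lower. The median log2 fold change of the 10 genes was 0.24, against 0.01 over all genes tested. Apart from Chac1, the changes that passed were between 1.14-fold and 1.39-fold. The CPM ranges of ligation and sham did not overlap in 4 of the 10 genes, against 47.6% of all genes tested.

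Atf4 (ENSMUSG00000042406, GRCm38 chromosome 15: 80255184 to 80257541, plus strand), which encodes the central factor of the integrated stress response, was at 109.5, 102.8 and 107.9 CPM in the 3 sham libraries and at 127.6, 113.6 and 103.8 CPM after ligation. The groups overlapped, since ligation replicate 3 lay within the sham range. The log2 fold change of 0.10 (SE 0.0709) did not pass (edgeR adjusted p 0.286), and was 0.03 without ligation replicate 1 and 0.16 without ligation replicate 3. Scaling by library totals alone gave Atf4 0.29 with an edgeR adjusted p of 0.00151.

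Ddit3 (ENSMUSG00000025408, chromosome 10: 127290774 to 127296288, plus strand) encodes CHOP, a factor induced downstream of ATF4 and linked to cell death. It was at 29.5, 31.96 and 33.3 CPM in sham and at 36.9, 35.9 and 39.8 CPM after ligation. All 3 ligation libraries lay above all 3 sham libraries. Ddit3 rose by 0.25 on the log2 scale (SE 0.0887, edgeR adjusted p 0.0325). That call was lost without sham replicate 1, sham replicate 2, ligation replicate 1 or ligation replicate 3 (log2 fold changes 0.20, 0.25, 0.26 and 0.18, edgeR adjusted p 0.118, 0.0683, 0.0514 and 0.19). It was also lost with libraries summed by header stem (0.22, edgeR adjusted p 0.106), by DESeq2's Wald test (0.24, adjusted p 0.115), with no filter on low counts (0.26, edgeR adjusted p 0.0545) and with the fit limited to the 2 groups (0.23, edgeR adjusted p 0.0538).

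Chac1 (ENSMUSG00000027313, chromosome 2: 119351229 to 119354381, plus strand), an enzyme that breaks down glutathione and an ATF4 target, had the fewest counts of the 10 genes in sham. It had 7, 4 and 24 counts in sham (1.25, 0.659 and 3.81 CPM), and 14, 47 and 50 counts after ligation (2.98, 6.80 and 6.25 CPM). Ligation replicate 1 was below sham replicate 3, so the groups overlapped. Chac1 rose by 1.5 on the log2 scale (SE 0.425, edgeR adjusted p 0.00803). Without sham replicate 3 it was 2.53, and without sham replicate 2 it was 1.09.

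The other ATF4 targets among the 10 did not pass after ligation. Trib3 (ENSMUSG00000032715, chromosome 2: 152337422 to 152344032, minus strand), a pseudokinase that feeds back on ATF4, was at 10.03 ± 0.714 CPM (SD, n = 3) in sham and 9.39 ± 0.932 after ligation. Asns (ENSMUSG00000029752, chromosome 6: 7675169 to 7693254, minus strand), which makes asparagine, was at 4.80 ± 2.06 and 5.51 ± 1.19 CPM. Sesn2 (ENSMUSG00000028893, chromosome 4: 132492032 to 132510501, minus strand), a stress-induced inhibitor of mTORC1 signalling, was at 6.79 ± 1.38 and 8.26 ± 0.969 CPM. In each of these genes the libraries of the groups overlapped. Their log2 fold changes were -0.08 (SE 0.182), 0.23 (SE 0.297) and 0.27 (SE 0.213) (edgeR adjusted p 0.765, 0.585 and 0.355). In the fits without 1 library they ranged from -0.18 to -0.02, -0.002 to 0.61 and 0.14 to 0.43. With 20 to 83 counts a library in these genes, their standard errors were wider than those of Atf4 or Hspa5.

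Xbp1 (ENSMUSG00000020484, chromosome 11: 5520659 to 5525893, plus strand), whose product drives ER chaperone and degradation genes once its mRNA is spliced, had the smallest adjusted p of the 10. It was at 76.7, 82.7 and 75.7 CPM in sham and at 106.3, 108.5 and 111.6 CPM after ligation, with a wide gap between the groups. Xbp1 rose by 0.47 on the log2 scale (SE 0.0612, edgeR adjusted p 2.82e-06). It passed in each of the 18 alternatives run, including each fit without 1 library (0.44 to 0.52).

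Hspa5 (ENSMUSG00000026864, chromosome 2: 34771970 to 34777547, plus strand) encodes BiP, the main ER chaperone, which also holds the sensors inactive. It was at 441.9, 430.3 and 460.2 CPM in sham and at 534.8, 513.0 and 466.6 CPM after ligation. Ligation replicate 3 was close to the highest sham library, and the groups did not overlap. Hspa5 rose by 0.18 on the log2 scale (SE 0.0512, edgeR adjusted p 0.00728).

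Pdia4 (ENSMUSG00000025823, chromosome 6: 47796141 to 47813430, minus strand), a disulfide isomerase of the ER, was at 43.96, 41.8 and 42.1 CPM in sham and at 51.99, 48.5 and 52.8 CPM after ligation. All 3 ligation libraries were above all 3 sham libraries. Pdia4 rose by 0.26 on the log2 scale (SE 0.0853, edgeR adjusted p 0.0199). The call was lost without sham replicate 2, sham replicate 3 or ligation replicate 3 (0.25, 0.25 and 0.22, edgeR adjusted p 0.0634, 0.0579 and 0.105), with libraries summed by header stem (0.25, edgeR adjusted p 0.0625) and by DESeq2's Wald test (0.25, adjusted p 0.062).

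Herpud1 (ENSMUSG00000031770, chromosome 8: 94386438 to 94395377, plus strand), an ER membrane protein of the degradation machinery, was at 205.2, 207.4 and 209.1 CPM in sham and at 199.7, 226.6 and 210.8 CPM after ligation. Ligation libraries lay on both sides of the sham range. The log2 fold change of 0.04 (SE 0.0539) did not pass (edgeR adjusted p 0.632), but it was 0.23 with an edgeR adjusted p of 0.00231 when scaled by library totals alone.

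**Figure D2:**
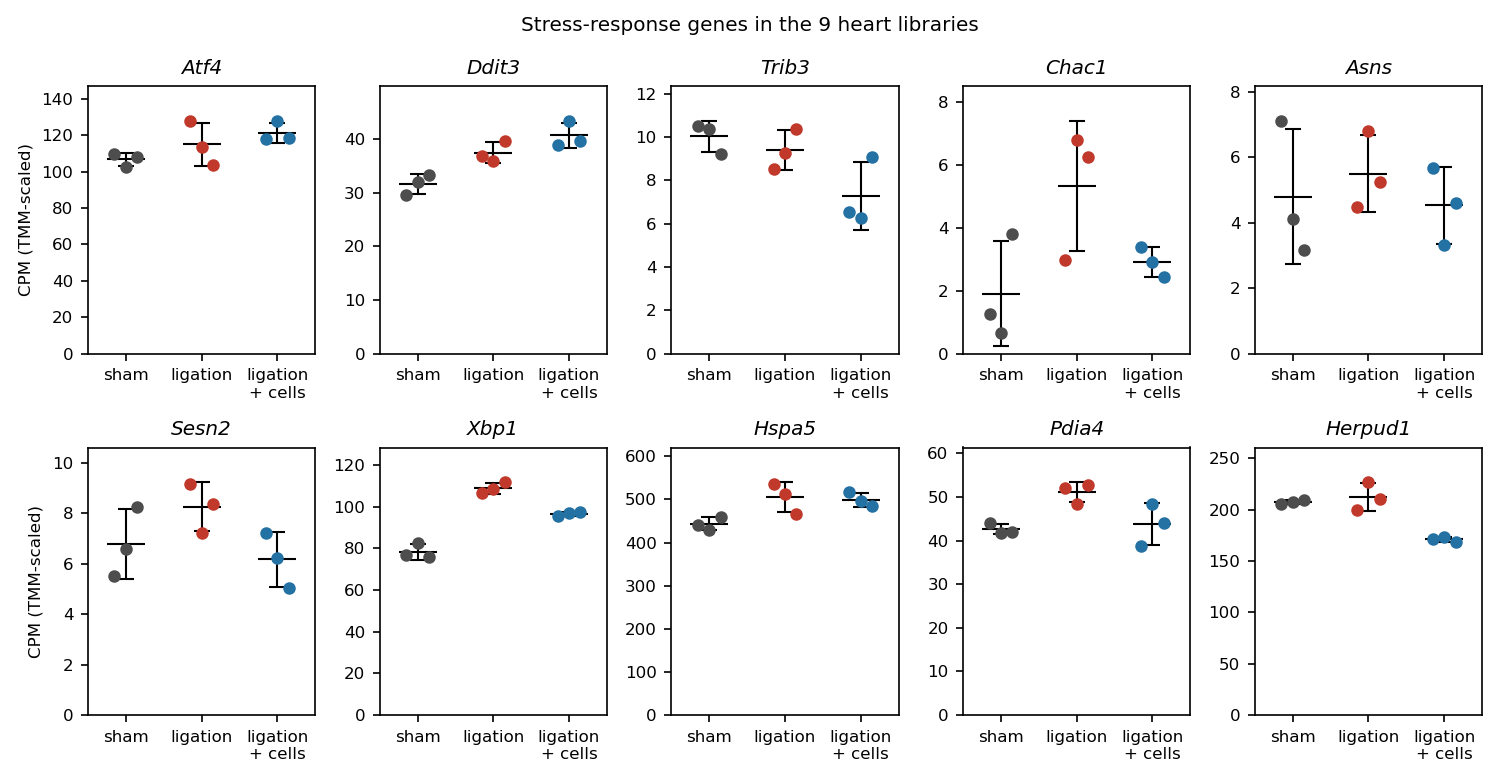
CPM of each of the 10 genes (y axis, from 0, 1 panel a gene) in the 3 libraries of each group (x axis); points are libraries and bars the mean ± SD. Xbp1 libraries after ligation, at 106.3 to 111.6 CPM, sit clear of sham at 75.7 to 82.7, and Herpud1 libraries with cells, at 168.7 to 173.4, sit below both other groups.

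The second comparison set ligated hearts with cells against ligation alone. Herpud1 fell and the other 9 genes did not pass 0.05, where 9.87% of all genes tested passed, 4.19% higher and 5.69% lower. The median log2 fold change of the 10 genes was -0.26, against 0.002 over all genes, with 8 of 10 below 0. CPM ranges did not overlap in 4 of the 10 genes (Xbp1, Herpud1, Sesn2 and Pdia4, all lower with cells), against 27.2% of all genes. For Sesn2 the groups nearly touched, at 7.235 CPM in the lowest ligation library and 7.234 in the highest with cells. The same held for Pdia4, at 48.47 and 48.41 CPM.

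Herpud1 was at 171.2, 173.4 and 168.7 CPM with cells, below every library of ligation and of sham. The log2 fold change against ligation was -0.31 (SE 0.054, edgeR adjusted p 0.000486). It passed in each of the 18 alternatives run, from -0.36 to -0.27 in the fits without 1 library.

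Xbp1 was at 95.5, 97.1 and 97.2 CPM with cells, between the libraries of sham and those of ligation, and its log2 fold change against ligation was -0.17 (SE 0.0595, edgeR adjusted p 0.0725). Library totals alone gave -0.20 with an edgeR adjusted p of 0.0407. Pdia4 was at 38.7, 48.4 and 44.1 CPM with cells, a log2 fold change of -0.22 (SE 0.0834, edgeR adjusted p 0.103), which became -0.30 with an edgeR adjusted p of 0.0336 without cell replicate 2 and -0.14 without cell replicate 1. Chac1 was at 3.40, 2.91 and 2.45 CPM with cells, a log2 fold change of -0.91 (SE 0.385, edgeR adjusted p 0.156). With no filter on low counts the Chac1 value was -0.91 and its edgeR adjusted p 0.041.

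In the hearts with cells Trib3 stood at 7.28 ± 1.56 CPM (SD, n = 3), Sesn2 at 6.17 ± 1.10 and Asns at 4.54 ± 1.17. Their log2 fold changes against ligation of -0.38 (SE 0.186), -0.41 (SE 0.211) and -0.30 (SE 0.292) missed the threshold (edgeR adjusted p 0.227, 0.261 and 0.607), and ranged from -0.57 to -0.28, -0.54 to -0.28 and -0.49 to -0.12 in the fits without 1 library. Atf4, Ddit3 and Hspa5 differed from ligation by 0.09 (SE 0.0697), 0.12 (SE 0.0843) and -0.02 (SE 0.051) (edgeR adjusted p 0.517, 0.46 and 0.901). Without 1 library Atf4 ranged from 0.02 to 0.16 and Ddit3 from 0.07 to 0.17. The 3 cell libraries of Hspa5, at 517.2, 496.0 and 484.3 CPM, lay inside the ligation range.

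The third comparison, cells against sham, shares its libraries with both others. Atf4, Ddit3, Xbp1 and Hspa5 were higher and Herpud1 lower past 0.05, 5 of the 10 genes, where 40.9% of all genes passed, 21% higher and 20% lower. With library totals alone the 4 higher calls were made and no lower one, since Herpud1 was then at -0.12 (edgeR adjusted p 0.092). CPM ranges did not overlap in 6 of the 10 genes, against 49.8% of all genes. Atf4 was at 117.9, 127.9 and 118.6 CPM with cells, a log2 fold change of 0.19 (SE 0.0702, edgeR adjusted p 0.0391). The Atf4 call was lost without any 1 of the sham or cell libraries (0.15 to 0.21 over all fits without 1 library), by DESeq2's Wald test (0.18, adjusted p 0.0574), with mitochondrially encoded genes removed (0.17, edgeR adjusted p 0.0589) and with libraries summed by header stem (0.17, edgeR adjusted p 0.0838).

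Ddit3 had its highest group mean with cells, at 39.0, 43.4 and 39.8 CPM, though these libraries overlapped those of ligation. Its log2 fold change against sham was 0.36 (SE 0.0869, edgeR adjusted p 0.00209). Xbp1 differed from sham by 0.30 (SE 0.0612, edgeR adjusted p 0.000491) and Herpud1 by -0.28 (SE 0.0541, edgeR adjusted p 0.000341). Hspa5 differed by 0.17 (SE 0.0511, edgeR adjusted p 0.0119), and passed neither without sham replicate 2 (0.14, edgeR adjusted p 0.052) nor without cell replicate 1 (0.14, edgeR adjusted p 0.063). Trib3 was lower in every cell library than in every sham library, with a log2 fold change of -0.46 (SE 0.186) that missed the threshold (edgeR adjusted p 0.0536). It passed without cell replicate 3 (-0.65, edgeR adjusted p 0.0167), without ligation replicate 3 (-0.48, edgeR adjusted p 0.0498) and with mitochondrially encoded genes removed (-0.48, edgeR adjusted p 0.045). Chac1, Asns, Sesn2 and Pdia4 differed from sham by 0.59, -0.07, -0.14 and 0.04, with edgeR adjusted p-values of 0.328, 0.875, 0.636 and 0.751. For Chac1, leaving out sham replicate 3 gave 1.61 (edgeR adjusted p 0.0173) and leaving out sham replicate 2 gave 0.18.

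**Figure D3:**
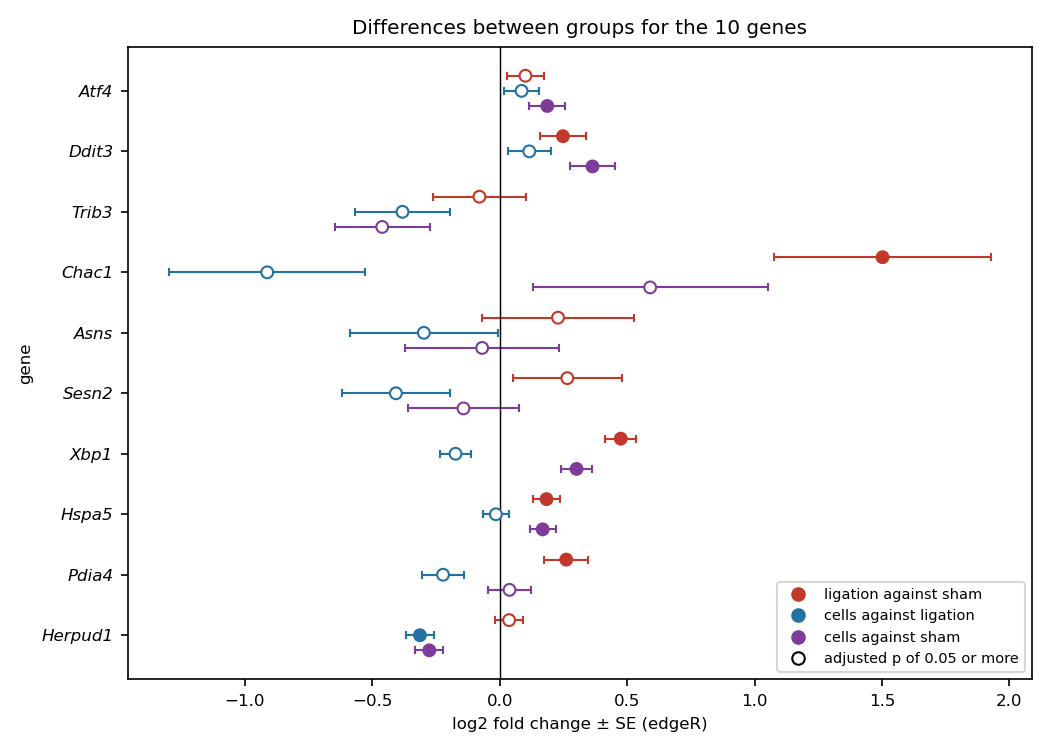
Log2 fold change ± SE (x axis) of each of the 10 genes (y axis) in the 3 comparisons, filled where the edgeR adjusted p was under 0.05. Filled points lie right of 0 for ligation against sham, and the Herpud1 points against ligation and against sham, at -0.31 and -0.28, are the filled points left of 0.

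Levels were compared between genes as CPM per kilobase of merged exons. In sham the order was Hspa5 (105.0 ± 3.56 CPM per kilobase, SD, n = 3), Herpud1 (88.8 ± 0.828), Atf4 (45.3 ± 1.48), Xbp1 (24.1 ± 1.16), Ddit3 (18.5 ± 1.12), Pdia4 (17.8 ± 0.485), Trib3 (4.72 ± 0.336), Sesn2 (1.95 ± 0.397), Asns (1.76 ± 0.753) and Chac1 (1.16 ± 1.02). The libraries of Ddit3 and Pdia4 overlapped, as did those of Sesn2 with Asns and of Asns with Chac1, so these neighbours were not separated. The first 7 places were the same in ligation and with cells. Chac1 was in eighth place after ligation, at 3.27 ± 1.26 CPM per kilobase, but its libraries overlapped those of Trib3 and of Sesn2. Ddit3 and Pdia4 were apart with cells, at 23.8 ± 1.38 and 18.2 ± 2.02 CPM per kilobase.

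Another 136 genes of the pathway were grouped into 6 lists by role, and 130 of them were tested. The lists were chosen with earlier results of these data known, so their shares beside those of all genes are descriptions only. The gene behind the PERK sensor, Eif2ak3, was at 15.2 CPM in sham and 17.2 after ligation and did not pass (log2 fold change 0.18, edgeR adjusted p 0.393; 0.03 without sham replicate 2 and 0.30 without sham replicate 1). Overlaps with genes on the opposite strand cover 8.05% of its exon bases, 4.32% of those of Eif2ak2, 11.6% of Eif2ak1 and 11.4% of Ppp1r15b, and the strand setting of the counting is not given, so these counts are uncertain. Among the other eIF2 kinases, Eif2ak2 (PKR, which senses double-stranded RNA) rose by 0.32 (SE 0.103, edgeR adjusted p 0.0166). That call was lost without sham replicate 1, sham replicate 2 or ligation replicate 1 (edgeR adjusted p 0.0534, 0.0636 and 0.0641), with header stems summed (edgeR adjusted p 0.0578) and by DESeq2's Wald test (adjusted p 0.0534). Eif2ak1 (HRI, which senses heme and mitochondrial stress) was past the threshold at 0.36 (edgeR adjusted p 0.0421). It was lost in 4 of the 9 fits without 1 library (without sham replicate 1 or 3, or ligation replicate 1 or 3), in 1 of which, without ligation replicate 3, it was 0.21 (edgeR adjusted p 0.311), with the replicate number as a block (0.36, edgeR adjusted p 0.054), with mitochondrially encoded genes removed or header stems summed (edgeR adjusted p 0.0507 in both) and by DESeq2's Wald test (adjusted p 0.0874). Eif2ak4 (GCN2, which senses uncharged tRNA) was at 0.20 and did not pass (edgeR adjusted p 0.282; 0.09 without ligation replicate 3 and 0.30 without ligation replicate 1), though it did with library totals alone (0.39, edgeR adjusted p 0.0313).

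The inducible phosphatase subunit Ppp1r15a (GADD34), which reverses eIF2 phosphorylation, was at 31.7, 31.3 and 30.3 CPM in sham and 44.1, 44.1 and 43.0 after ligation. The groups did not overlap, and the log2 fold change was 0.49 (SE 0.0823, edgeR adjusted p 7.06e-05). Its constitutive counterpart Ppp1r15b was at 0.16 and did not pass (edgeR adjusted p 0.114), though it did with library totals alone (0.34, edgeR adjusted p 0.00085). Of the 16 genes in this list of kinases, phosphatase subunits and eIF2 machinery, 3 rose, 6 fell and 7 did not pass after ligation, 18.8% higher and 37.5% lower against 20.1% and 18% of all genes, with a median of -0.17. Library totals alone gave 5 higher and 3 lower and a median of 0.02. The 3 higher calls were reduced to 1 by DESeq2, with header stems summed and without some single libraries (1 without sham replicate 1 or ligation replicate 1). The genes that fell included Eif2b4, a subunit of the eIF2B exchange factor (-0.55, SE 0.0776, edgeR adjusted p 8.54e-06), and Nck1, an adaptor that recruits eIF2 phosphatase (-0.49, edgeR adjusted p 9.55e-06). Eif2b4 shares 7.85% of its exon bases with Snx17 on the opposite strand. Dele1 and Oma1, which relay mitochondrial stress to HRI, were at -0.44 and -0.37 (edgeR adjusted p 9.91e-06 and 0.00676), both chosen for mention after their values were seen. The Oma1 call was lost with library totals alone (-0.18, edgeR adjusted p 0.171).

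In the list of ATF4 partners, feedback regulators and other stress-induced genes 13 of 20 tested genes rose after ligation, 2 fell and 5 did not pass. This was 65% higher and 10% lower against 20.1% and 18% of all genes, with a median of 0.35 beside 0.01 over all genes. Library totals alone gave 16 higher and 0 lower. The list is not limited to ATF4 targets. Gdf15, a secreted stress cytokine, was at 5.16, 3.95 and 3.33 CPM in sham and at 26.6, 32.9 and 35.3 CPM after ligation. The lowest ligation library was well above the highest sham library, and the log2 fold change was 2.95 (SE 0.167, edgeR adjusted p 1.65e-11). Ddit4, an inhibitor of mTORC1 signalling, rose by 0.83 (SE 0.066, edgeR adjusted p 2.87e-09), from 65.5 to 69.7 CPM in sham to 115.5 to 125.7 after ligation. Fgf21, another secreted product of this response, had 2 counts over all 9 libraries and was not tested. The genes of this list that fell were Trib2 (-0.31, edgeR adjusted p 0.00384) and Gadd45a (-0.59, edgeR adjusted p 0.0344). Both calls were lost with library totals alone (-0.13 and -0.40), and the Gadd45a call also without sham replicate 1, sham replicate 3 or ligation replicate 2 (edgeR adjusted p 0.0646, 0.156 and 0.142), with the replicate block (-0.59, edgeR adjusted p 0.0504), with header stems summed and by DESeq2's Wald test (adjusted p 0.0511 and 0.0616). Gadd45a shares 19.1% of its exon bases with E230016M11Rik on the opposite strand.

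Of 28 tested genes of amino acid supply and tRNA charging, 6 rose, 1 fell and 21 did not pass after ligation, 21.4% higher and 3.57% lower against 20.1% and 18% of all genes, with a median of 0.09; library totals alone gave 16 higher and 1 lower. Without ligation replicate 3 the higher count was 4. Slc1a5, a glutamine transporter, rose by 1.09 (SE 0.0766, edgeR adjusted p 4.49e-10), from 38.6 to 43.0 CPM in sham to 83.5 to 88.9 after ligation. Slc38a2, an amino acid transporter, rose by 0.51 (SE 0.0489, edgeR adjusted p 4.78e-08). Wars, the tryptophanyl-tRNA synthetase, which is also known as an interferon-induced gene, was the 1 gene of the list that fell. It was at 182.1, 209.9 and 198.9 CPM in sham, at 74.6, 72.5 and 84.0 after ligation and at 50.8, 57.7 and 48.8 with cells. The 3 groups did not overlap in Wars, with log2 fold changes of -1.35 (SE 0.075, edgeR adjusted p 1.22e-11) after ligation and -0.56 (SE 0.0804, edgeR adjusted p 7.02e-05) with cells against ligation.

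Of the 13 tested sensors and transcription factors of the unfolded protein response, 4 rose and 9 did not pass after ligation, 30.8% higher against 20.1% of all genes, with a median of 0.17 (0.09 without ligation replicate 3); library totals alone gave 9 higher and a median of 0.35. Ern1, which encodes IRE1, was at 14.6, 13.5 and 14.9 CPM in sham and 20.2, 20.4 and 19.1 after ligation (0.47, SE 0.127, edgeR adjusted p 0.0057). Atf6 rose by 0.37 (SE 0.073, edgeR adjusted p 0.000443) and Creb3l2, a related membrane-bound factor, by 0.61 (SE 0.0699, edgeR adjusted p 6.18e-07). In both Ern1 and Atf6 every ligation library was above every sham library.

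Among 30 ER chaperones and folding enzymes 11 rose, none fell and 19 did not pass after ligation, 36.7% higher against 20.1% of all genes, with a median of 0.14. Library totals alone made 20 calls, all higher. The number called higher was 7 without sham replicate 2, and 1 gene was lower without sham replicate 1, sham replicate 2 or ligation replicate 1. Txndc5 and P4hb, both of the disulfide isomerase family, rose by 0.53 (SE 0.0776, edgeR adjusted p 1.38e-05) and 0.32 (SE 0.049, edgeR adjusted p 2.80e-05). Txndc5 shares 11.9% of its exon bases with Bmp6 and Gm31834 on the opposite strand. Of 23 tested genes of ER-associated degradation 7 rose, 2 fell and 14 did not pass, 30.4% higher and 8.70% lower against 20.1% and 18% of all genes, with a median of 0.09; library totals alone gave 15 higher and 2 lower, and without ligation replicate 3 the higher count was 4. Ubxn4 and Nploc4, cofactors of the VCP segregase, rose by 0.49 and 0.47 (edgeR adjusted p 8.72e-06 and 2.80e-05). Vcp itself fell by 0.51 on the log2 scale (edgeR adjusted p 5.97e-07) and Selenok fell by 0.42 (edgeR adjusted p 3.00e-05), but 46.3% and 16.1% of their 31-base words recur in other genes, so their counts are uncertain.

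With cells against ligation 9.87% of all genes passed, 4.19% higher and 5.69% lower, and the lists' counts are read beside those shares. None of the 16 tested genes of eIF2 kinases and machinery did by edgeR or by DESeq2, with 3 at an unadjusted edgeR p under 0.05 (median 0.11). In the list of ATF4 partners and other stress-induced genes 2 rose and 1 fell (median 0.01, and -0.02 with library totals alone). Here 2 were lower with library totals alone and with no filter on low counts, and none without ligation replicate 2. Atf3, a stress-induced factor, was at 6.59, 9.39 and 8.26 CPM in sham, at 8.31, 13.2 and 10.1 after ligation and at 24.96, 22.6 and 25.6 with cells. Sham and ligation overlapped and the cell libraries were above both, with a log2 fold change against ligation of 1.19 (SE 0.153, edgeR adjusted p 1.82e-05). Vldlr, a lipoprotein receptor gene, rose by 0.27 (SE 0.0538, edgeR adjusted p 0.00221). Atf5, a factor of the mitochondrial stress response, fell by 0.24 on the log2 scale (edgeR adjusted p 0.0167), and was lost without ligation replicate 2 (edgeR adjusted p 0.0508) or cell replicate 2 (-0.17, edgeR adjusted p 0.112).

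In the same comparison 3 of 30 ER chaperones fell (4 with library totals alone) and none rose, with a median of -0.12 and 23 of 30 below 0. Sdf2l1, an ER protein that works with BiP, was at 15.1, 16.5 and 16.5 CPM in sham, at 22.6, 22.1 and 21.3 after ligation and at 10.4, 9.71 and 7.78 with cells. Sdf2l1 rose after ligation (0.45, edgeR adjusted p 0.00776) and fell with cells to below sham, with no overlap between the 3 groups. Its log2 fold change against ligation was -1.24 (SE 0.134, edgeR adjusted p 1.86e-06). Calr, the ER calcium-binding chaperone calreticulin, fell by 0.22 on the log2 scale (SE 0.044, edgeR adjusted p 0.00171), from 387.5 to 397.0 CPM after ligation to 332.3 to 337.8 with cells. Of the sensor list Tmbim6, an ER membrane gene that restrains IRE1, fell by 0.27 (edgeR adjusted p 0.00116), the 1 of 13 that passed, against 2 without ligation replicate 1 and with library totals alone. Of the degradation list Syvn1, the ligase partnered by HERPUD1, was at -0.41 (edgeR adjusted p 0.032), a call lost without ligation replicate 2 or 3 or cell replicate 2 or 3 (edgeR adjusted p 0.0529 to 0.203), with header stems summed and by DESeq2's Wald test (adjusted p 0.0745 and 0.0692). In amino acid supply and tRNA charging 1 of 28 tested genes rose and 2 fell. Slc38a2 rose by 0.25, and Slc1a5 and Wars fell by 0.43 and 0.56 on the log2 scale (edgeR adjusted p 0.00115, 0.000376 and 7.02e-05).

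Against sham, the list of ATF4 partners and other stress-induced genes had 11 of 20 higher and 1 lower with cells (median 0.25). These were 55% and 5% of the list, against 21% and 20% of all genes. Library totals alone gave 15 and 0 (median 0.41), and none was lower without sham replicate 1. Of 30 chaperones 8 were higher and 6 lower (median 0.03), 26.7% and 20%. With library totals alone the chaperones were 13 higher and 2 lower. Dnajc10 and Hspa13, an ER reductase and an ER chaperone, were higher by 0.64 and 0.63 (edgeR adjusted p 3.95e-07 and 4.33e-05), and Sdf2l1 was lower by a log2 fold change of -0.79 (edgeR adjusted p 0.000133). The eIF2 list had 2 higher and 6 lower, and 6 and 3 with library totals alone. Its lower count was 3 by DESeq2, without sham replicate 2 and without cell replicate 1. The sensor list had 3 and 1, and 6 and 0 with that scaling; the degradation list had 4 and 3, and 12 and 2; the amino acid list had 4 and 1, and 13 and 1. Gdf15 stayed high, at 32.9 to 40.2 CPM, a log2 fold change of 3.14 (SE 0.164, edgeR adjusted p 3.94e-12).

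**Figure D4:**
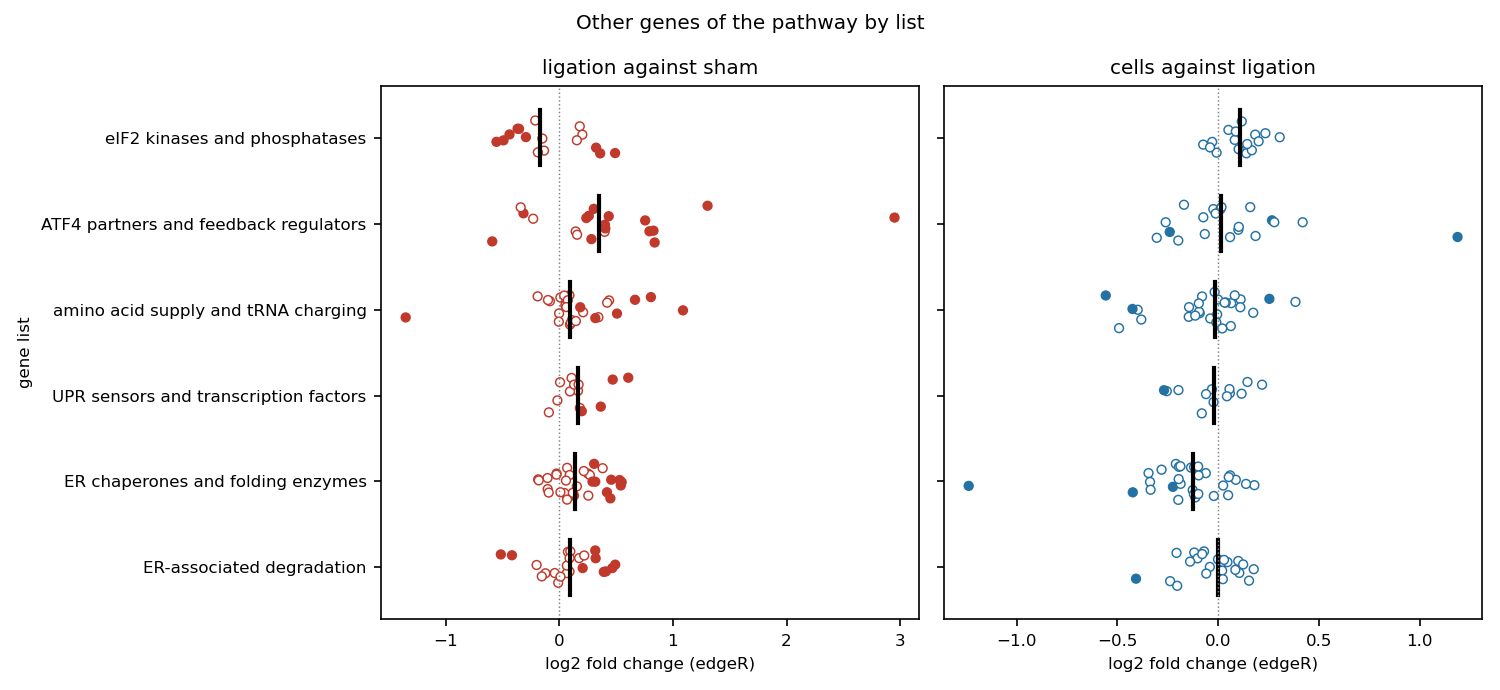
Log2 fold change (x axis) of every tested gene in the 6 lists (y axis, points spread vertically for sight), filled where the edgeR adjusted p was under 0.05, with list medians as black bars. After ligation (left) the list labelled ATF4 partners and feedback regulators lies furthest right, with a median of 0.35 and Gdf15 at 2.95. That list also holds other stress-induced genes. With cells against ligation (right) Atf3 at 1.19 and Sdf2l1 at -1.24 stand apart.

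Tested genes were also grouped only by the letters in their promoters, and the split of their calls moved with the scaling and the test. These groups include Hspa5, Herpud1, Chac1 and Asns where they hold an element, so part of each count repeats results given above. Of 243 genes with a CARE 46 were higher and 43 lower after ligation, 18.9% and 17.7% against 20.1% and 18% of all genes (median 0.02), and 96 and 25 with library totals alone (median 0.21). Of 274 with a UPRE 67 were higher and 44 lower, 24.5% and 16.1% (median 0.07). The UPRE split was 120 and 18 with library totals alone (median 0.26), 45 and 35 by DESeq2, 44 and 41 with header stems summed, and the higher count was 47 without ligation replicate 3. Of 15 with an ERSE 4 were higher and 2 lower (median 0.06), with 9 higher under library totals alone and 2 without ligation replicate 3. Of 7 with an ERSE-II 2 were higher and 1 lower, and 4 and 0 with library totals alone.

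With cells against ligation, genes with a CARE had 10 higher and 24 lower, 4.12% and 9.88% against 4.19% and 5.69% of all genes. Genes with a UPRE had 8 and 14, 2.92% and 5.11%; the higher count was 5 with header stems summed or with library totals alone, and 3 to 5 without any 1 of the ligation libraries or of cell replicates 1 and 3. Genes with an ERSE had 0 higher and 2 lower (median -0.10), and 1 lower without ligation replicate 2 or 3 or cell replicate 2 or 3, by DESeq2 and with header stems summed. Those with an ERSE-II had 0 higher and 1 lower, which was Herpud1 itself, and 2 lower without sham replicate 3 and with library totals alone. With cells against sham, genes with a CARE had 46 and 50 (83 and 30 with library totals alone), and genes with a UPRE 73 and 35, 26.6% and 12.8% against 21% and 20% of all genes (113 and 26 with library totals alone). The ERSE genes had 3 and 4 (6 and 2 with library totals alone). The ERSE-II genes had 2 and 1 (2 and 0 with that scaling), with 1 higher when header stems were summed or without sham replicate 1 or 2 or cell replicate 1, and 2 lower without ligation replicate 1 or 3 or with mitochondrially encoded genes removed.

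As a description, the genes outside the lists whose log2 CPM followed Atf4 most closely over the 9 libraries were Anp32e (Pearson r 0.956), Ypel2 (0.951) and Zdhhc21 (0.946). For Hspa5 they were Hnrnpul2 (0.976), Ppic (0.97) and Mylk2 (0.96), the last at 0.161 CPM in sham, under the level of 3 counts, and 1.44 after ligation. The points share the group structure and the scaling, so genes that differ between groups rank high.

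Cell type markers moved with the groups as well. The defining heart muscle markers were abundant, with 10 cardiomyocyte markers summing to 61890 to 63340 CPM in sham, 45080 to 47630 after ligation and 45620 to 46810 with cells. After ligation 8 of these 10 were lower and 1 higher. All 10 endothelial markers were lower (2510 to 2558 CPM in sum against 3809 to 3903 in sham), 6 of 10 fibroblast markers were higher and 2 lower (6481 to 6642 against 4709 to 4725), and 9 of 10 macrophage and monocyte markers were higher and 1 lower (1171 to 1186 against 620.8 to 669.9). With cells against ligation 9 of 10 macrophage and monocyte markers fell, to a sum of 482.3 to 490.6 CPM. Fibroblast markers summed to 6248 to 6431 CPM there, with 0 of 10 higher and 2 lower. Endothelial markers had 3 higher and 0 lower (2652 to 2801 CPM in sum), and cardiomyocyte markers 3 and 1. Smooth muscle and pericyte markers had 1 higher and 4 lower, neutrophil markers 0 and 3, and B and plasma cell markers 0 and 1. Against sham, the cell group had 6 macrophage and monocyte, 9 endothelial and 8 cardiomyocyte markers lower, with 0, 0 and 1 higher. Fibroblast markers had 6 higher and 0 lower.

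Smooth muscle and pericyte markers summed to 3559 to 3628 CPM in sham, 4631 to 4712 after ligation and 4181 to 4275 with cells, with 3 higher and 4 lower of 9 tested after ligation. Des, which heart muscle also expresses, set that direction, at 1839 to 1868, 3326 to 3422 and 2906 to 2977 CPM. The other 9 markers summed to 1717 to 1760 CPM in sham, 1291 to 1305 after ligation and 1269 to 1298 with cells. Neutrophil markers summed to 40.6 to 47.2, 15.6 to 21.6 and 5.91 to 6.81 CPM. The B and plasma cell list was included because plasma cells hold much XBP1. Its sum was 24.8 to 29.2 CPM in sham, 38.9 to 48.1 after ligation, where Xbp1 rose, and 24.8 to 35.9 with cells. It came mostly from Sdc1 and Ighm, its 2 tested genes, which both rose after ligation (median log2 fold change 0.71). Sdc1 had 82, 96 and 93 counts in sham and 122, 155 and 222 after ligation, and Ighm had 63, 63 and 54 and then 64, 106 and 144. Ms4a1 was at 0 in all 9 libraries, and Jchain and Igkc had at most 2 counts in a library. Mzb1, a plasma cell gene too low to be tested, had 11, 12 and 7 counts in sham, 2, 3 and 9 after ligation and 2, 0 and 2 with cells. The part of cell composition in the results on the 10 genes was not tested.

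**Figure D5:**
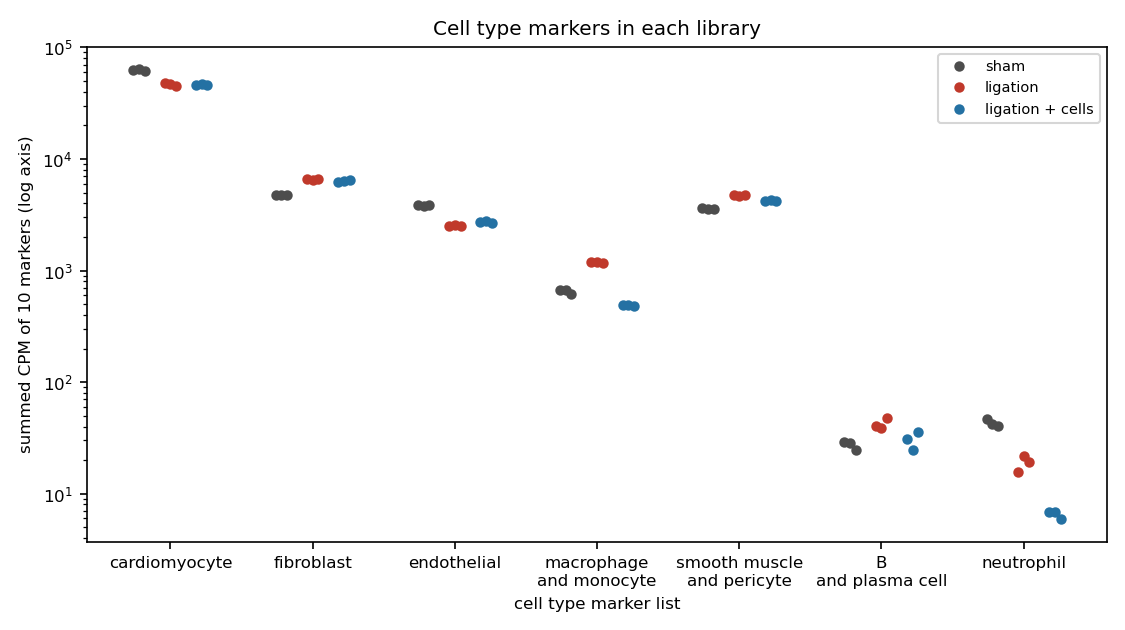
Summed CPM of 10 markers of each cell type (y axis, log scale) in each library, by group. The macrophage and monocyte sums lie at 1171 to 1186 after ligation and at 482.3 to 490.6 with cells, while cardiomyocyte sums are lower in both ligated groups than in sham.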

How the data were processed

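RNA was sequenced from 9 mouse heart libraries. TRIzol was used for RNA extraction and the NEBNext Ultra kit for library preparation, per the labels' protocols. The deposited values are the authors' raw read counts per Ensembl gene, 1 file a library, on mm10 per the submitters' processing notes. The aligner, counter, strand setting and annotation are not given in the sources used here. Closing rows outside genes (4.14% to 4.91% of reads in no gene, 8.09% to 8.72% in more than 1) were left out of library sizes.

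Symbols came from GENCODE M21 (53274 of 53465 IDs), and gene models from its GRCm38 annotation. In R 4.3.3, genes were filtered with filterByExpr and scaled with TMM, and edgeR 4.0.16 (glmQLFit, glmQLFTest) fitted group means to the 9 libraries together (6 residual degrees of freedom). P-values were adjusted with the Benjamini-Hochberg method over 13825 genes, threshold 0.05, two-sided. SE is the log2 fold change divided by the square root of F. CPM values were computed from the counts with the TMM factors; errors are SDs over 3 libraries. The members and lists were chosen with earlier results of these data known. The 10 members are named whatever their values; from each list the 2 genes with the smallest adjusted p in each direction were eligible, with a mean of at least 1 CPM, and Eif2ak1 to Eif2ak4, Ern1, Atf6, Ppp1r15a and Ppp1r15b whatever their values. Genes named outside that rule were chosen after their values were seen. These are Dele1, Oma1 and Sdf2l1 after ligation, the 2 counts of Fgf21, and the promoter lists.

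Alternatives were DESeq2 size factors, library totals, filters, DESeq2 1.42.0, 2-group fits, removal of mitochondrially encoded genes, the replicate block, leaving out each library, and, chosen after seeing the files, summing libraries by header stem. In simulated data for ligation against sham (13825 genes), 90 of 100 genes changed by 1 on the log2 scale and 28 of 100 changed by 0.3 were recovered, with 14 false calls. Only these genes, none of them of low count, were changed in the simulation. In the data 38.2% of all genes tested passed, so the cut-off differs and the recovered shares do not carry over. Replicate pairs differed by a mean chi-square per gene of 1.98 to 3.96, above sampling noise, so no pair was merged as a repeat deposit of 1 library. This does not show that libraries with a shared stem came from separate animals. The level of 3 counts covers counting error only, while SDs and SEs carry the spread between libraries. Figures used matplotlib 3.10.9.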

Additional observations from a re-analysis of the deposited data

Results flagged for a closer look

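Reads in no annotated gene, which no comparison above uses, were more frequent in every ligation library than in every sham library, with a mean of 4.75% ± 0.155 (SD, n = 3) against 4.21% ± 0.035. The hearts with cells had 4.22% ± 0.113. The part of this in the results on the 10 genes was not tested.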

How the results depend on the processing

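Of 540 values of the 10 genes' 30 fold changes under 18 alternatives, 494 kept direction and side of the threshold, 25 lost and 9 gained a call, and 12 changed sign. After ligation 5 of the 10 genes passed; this was 7 with library totals alone, 4 with no filter on low counts and with fits of 2 groups, 3 by DESeq2's Wald test and with libraries summed by header stem, and 3 to 5 in the fits without 1 library. With cells against ligation 1 gene passed, 2 with library totals alone (Xbp1 added) and with no filter on low counts (Chac1 added), and 1 to 2 without 1 library. Against sham 5 passed, and 3 to 6 without 1 library. The cause of these changes was not tested. Library totals alone turned Trib3 after ligation to 0.11, and Asns and Sesn2 with cells against sham to 0.0897 and 0.0158; summed header stems turned Herpud1 after ligation to -0.00441. Fits without 1 library crossed 0 for Asns (-0.00194 to 0.612) and Herpud1 (-0.00973 to 0.0775) after ligation, for Hspa5 with cells against ligation (-0.0683 to 0.0255), and for Asns (-0.301 to 0.313), Sesn2 (-0.27 to 0.0251) and Pdia4 (-0.0404 to 0.12) with cells against sham; none of these passed in any such fit. Over all genes, 4482 to 5459, 951 to 1398 and 5055 to 5746 genes passed without 1 library. Of 55 calls on list genes that were eligible for naming or were named, 45 were made in all alternatives. With the replicate block 5, 1 and 5 of the 10 genes passed, as in the fit without it, and 5134, 1230 and 5511 genes in all. Deviations of same-numbered libraries correlated at -0.0588 to 0.0607 across 13825 genes, so no pairing by number was seen over all genes. A pairing that touches few genes would not show in this check. Chac1, Asns, Sesn2 and Trib3 were the genes of the 10 with under 100 counts in every library, and the effect of depth on them was not tested.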
